A study of Mus musculus with 6 samples.

Results

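Amino acid transporters of the plasma membrane carry amino acids between the medium and the cell, and 10 of them were examined in myoblasts of the mdx mouse, a model of Duchenne muscular dystrophy that lacks dystrophin. The 10 genes were Slc7a5, Slc3a2, Slc7a11, Slc7a1, Slc7a6, Slc1a4, Slc1a5, Slc38a1, Slc38a2 and Slc6a9. They were found by their gene symbol among the 47069 genes of the count table, and all 10 passed the filter on low counts, as did 14165 genes in all. The transporters were chosen with the difference between PSB-KD107 and vehicle in view, that is, selected on values of the comparison described below. Their differences are therefore given as a description, with no test read for them.

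Both groups consisted of satellite cell-derived myoblasts from mdx mice, grown in medium with fetal bovine serum and FGF2. The cells had been sorted as positive for integrins beta 1 and alpha 7 and negative for Sca-1, CD45, CD31 and CD11b. One group received vehicle and the other 10 µM PSB-KD107, a synthetic agonist of the receptor Gpr18 (written PSB-KD-1 in the sample titles), and each group had 3 libraries. The methods of the study say that the cells came from 3 different mice and were treated overnight, whereas the sample records give 2 days. The table numbers the libraries 1, 2 and 4, and the records number them 1, 2 and 3, so that the libraries numbered 4 were placed in a group but not matched to a single record. In the methods, the mdx mice are male, of C57BL/10 background and 10 weeks old, without a separate statement for the donors of the cultured cells.

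Many of these carriers work in pairs or in exchange. The light chains Slc7a5, Slc7a6 and Slc7a11 reach the cell surface bound to the heavy chain Slc3a2 (CD98) and exchange one amino acid for another, whereas carriers such as Slc1a5, Slc38a1 and Slc38a2 use the sodium gradient. Leucine that enters through Slc7a5 is a signal to mTORC1, the kinase complex that promotes protein synthesis and growth. When amino acids are short or the endoplasmic reticulum is stressed, the transcription factor Atf4 binds C/EBP-ATF response elements near several transporter genes, and Nfe2l2 acts on Slc7a11 through antioxidant response elements.

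The promoters of these genes are shown because response elements like those named above can lie there. RefSeq promoter windows (GRCm38.p6, from 250 bases before to 50 bases after the start site, 300 bases in all) were available for 7 of the 10 genes, in 11 windows. The letters TGATGNAAN, searched on both strands as the C/EBP-ATF response element, matched in 2 of the 11 windows, those of Slc7a11 and Slc1a4, against 3.95% of all 32851 windows. The other 5 genes with a window had no match, and 4 of these (Slc3a2, Slc7a1, Slc38a2 and Slc6a9) had a higher mean under PSB-KD107. Both windows are printed 5′ to 3′ on the strand of the gene with the matched letters in capitals, and the window of Slc7a6, the only transporter of the 10 with a lower mean under PSB-KD107, is printed as an example of a window with no match.

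Slc7a11, chr3:50443564-50443863, minus strand: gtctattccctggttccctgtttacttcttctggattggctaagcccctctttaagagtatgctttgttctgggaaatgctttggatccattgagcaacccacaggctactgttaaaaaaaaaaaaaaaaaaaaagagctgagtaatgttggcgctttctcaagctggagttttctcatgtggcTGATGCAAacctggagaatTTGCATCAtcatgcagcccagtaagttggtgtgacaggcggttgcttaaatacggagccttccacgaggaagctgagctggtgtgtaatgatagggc
Slc1a4, chr11:20332664-20332963, minus strand: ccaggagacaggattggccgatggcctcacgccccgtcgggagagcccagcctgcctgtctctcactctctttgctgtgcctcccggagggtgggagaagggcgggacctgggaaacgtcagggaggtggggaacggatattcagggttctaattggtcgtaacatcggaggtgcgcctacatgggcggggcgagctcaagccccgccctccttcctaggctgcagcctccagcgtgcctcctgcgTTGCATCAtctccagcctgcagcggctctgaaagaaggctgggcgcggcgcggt
Slc7a6, chr8:106168604-106168903, plus strand: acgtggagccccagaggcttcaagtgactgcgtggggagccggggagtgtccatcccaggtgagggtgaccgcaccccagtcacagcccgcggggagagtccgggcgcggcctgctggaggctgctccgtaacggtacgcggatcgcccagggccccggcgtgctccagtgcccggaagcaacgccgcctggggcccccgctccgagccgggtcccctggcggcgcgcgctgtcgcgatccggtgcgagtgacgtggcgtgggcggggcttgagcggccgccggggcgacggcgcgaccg

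In the window of Slc7a11 there were 2 matches, TGATGCAA from -66 to -59 relative to the start site on the strand of the gene, and TTGCATCA from -47 to -40, which is the same letters on the opposite strand. The match of Slc1a4, TTGCATCA on the opposite strand, ran from -4 to 4. The shorter letters GATGNAA matched in 12.3% of all windows and in 3 of the 11, that of Slc7a1 in addition to those of Slc7a11 and Slc1a4. TGANNNNGC, the core of the antioxidant response element, is common by comparison, with a match in 41.3% of all windows and in 8 of the 11 (6 of the 7 genes), and 1 of its matches in Slc7a11 (-45 to -37) overlaps the second match of TGATGNAAN. The Myc site CACGTG, present in 7.15% of windows, matched in 0 of the 11. A match describes letters in a window and does not show that a factor binds there. A window with no match does not show that the gene lacks the element, as bases outside the windows were not searched.

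Library totals ranged from 32663562 to 39242439 counts with vehicle and from 30917613 to 48756794 with PSB-KD107, and values are given as CPM, counts scaled to a common library total with TMM factors. At these depths 3 counts correspond to 0.0596 to 0.0962 CPM, a floor that covers counting error only, and all 10 transporters were above it in all 6 libraries. The 10 myoblast markers examined were all tested, with a summed level of 9698 to 10368 CPM in vehicle libraries and 8391 to 10172 CPM in PSB-KD107 libraries. Of the 10, 3 had a higher and 7 a lower level with PSB-KD107, and the median of their log2 fold changes was -0.10. The groups did not overlap for 2 of them, both lower and named here after their values were seen. Over all genes tested, the groups were apart for 9.20% as higher and 6.59% as lower. Of the 10 markers, edgeR's test called 0 after adjustment (unadjusted, 0 passed 0.05 as higher and 2 as lower). DESeq2 called 1, Pax7, as lower. Over all genes, 6.47% passed unadjusted as higher and 2.93% as lower, and DESeq2 called 2.25% higher and 0.716% lower. Nothing is read from these counts. Pax7 of satellite cells was 59.5 ± 9.47 CPM with vehicle and 31.96 ± 4.55 CPM with PSB-KD107, and Myog of early differentiation was 2134 ± 82.8 and 1521 ± 301 CPM (mean ± SD, n = 3, as throughout). The 4 markers removed by the sort summed to 2.17 to 5.87 CPM with vehicle and 1.83 to 9.05 CPM with PSB-KD107. The immune list summed to 2.39 to 4.90 and 0.688 to 6.58 CPM, with Adgre1, C1qa and C1qb at 0 in every library, and the endothelial list to 0.310 to 1.40 and 0.385 to 1.13 CPM, with Emcn at 0. The fibro-adipogenic list summed to 0.993 to 2.42 and 1.44 to 9.88 CPM. Ly6a, which is in this list and among the sorted-out markers, had 8.36 CPM in PSB-KD107 library 4, and without that library the treated sums reached 2.86 CPM for the fibro-adipogenic list and 4.05 CPM for the sorted-out markers. In bulk RNA, a smaller share of one kind of cell and less RNA per cell cannot be told apart, and the part of these marker differences in the transporter values was not tested.

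Over the 10 transporters, 9 had a higher and 1 a lower mean level in PSB-KD107-treated myoblasts. The median log2 fold change was 0.74, against -0.00 over all genes tested. Across the 14165 genes, edgeR's quasi-likelihood test with Benjamini-Hochberg adjustment called 0 genes (0%) at a threshold of 0.05, the transporters included. By the unadjusted p-value, 7 of the 10 passed 0.05, all higher, where 6.47% of all genes passed as higher and 2.93% as lower. DESeq2, the package of the study, called 5 of the 10 after adjustment, all higher (Slc7a5, Slc7a11, Slc7a1, Slc1a4 and Slc38a2), against 2.25% of its genes called higher and 0.716% called lower. The 3 PSB-KD107 libraries lay above the 3 vehicle libraries for 7 transporters and below them for 0, against 9.20% and 6.59% of all genes. As the genes were selected on this comparison, nothing is read from these counts.

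**Figure D1:**
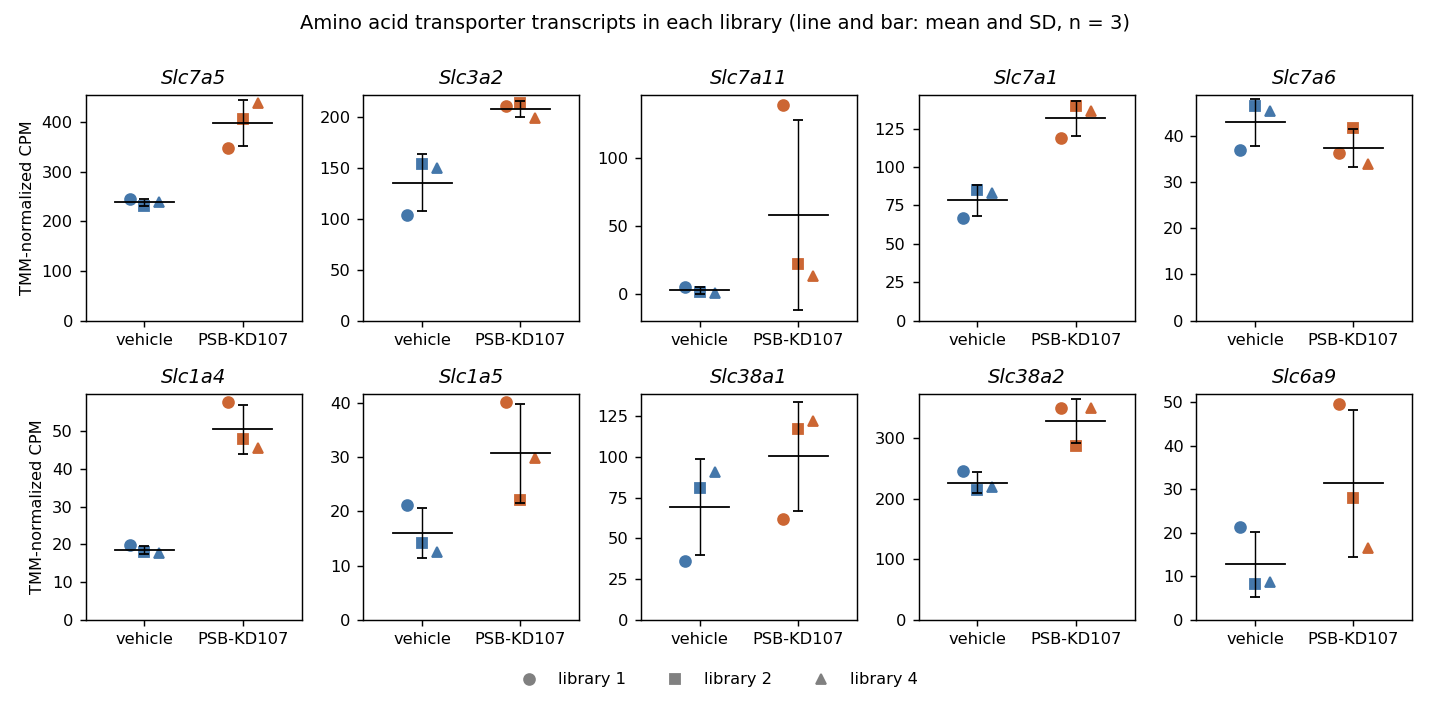
TMM-normalized CPM of each transporter in the 3 vehicle (blue) and 3 PSB-KD107 (orange) libraries, with the library number as symbol, and the mean and SD as line and bar. The groups are apart for 7 genes and overlap for Slc7a6, Slc38a1 and Slc6a9, and PSB-KD107 library 1 stands far above the others for Slc7a11, at 139.1 CPM.

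Slc7a5 (LAT1; ENSMUSG00000040010, chromosome 8 from 121881150 to 121907694 in GRCm38, minus strand) takes up leucine and other large neutral amino acids in exchange for glutamine. It had 244.8, 231.0 and 239.2 CPM in vehicle libraries 1, 2 and 4, and 347.3, 407.0 and 438.6 CPM in PSB-KD107 libraries 1, 2 and 4. The vehicle libraries were close together and all PSB-KD107 libraries were above them. The means were 238.3 ± 6.95 and 397.6 ± 46.4 CPM, or a log2 fold change of 0.74 with a standard error of 0.12.

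Its heavy chain Slc3a2 (ENSMUSG00000010095, chromosome 19 from 8706882 to 8723369, minus strand) brings the light chains to the cell surface. The level was 103.4, 153.7 and 149.9 CPM with vehicle and 210.9, 214.2 and 198.9 CPM with PSB-KD107. Vehicle library 1 was the lowest of all, and the PSB-KD107 libraries were close together above all 3 vehicle libraries. The log2 fold change was 0.62 (standard error 0.17), from 135.7 ± 28.0 to 208.0 ± 8.06 CPM.

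Slc7a11 (xCT; ENSMUSG00000027737, chromosome 3 from 49892526 to 50443614, minus strand) exports glutamate for cystine, the source of cysteine for glutathione. The counts were 202, 44 and 27 in the vehicle libraries and 6998, 681 and 475 in the PSB-KD107 libraries, or 5.15, 1.26 and 0.838 against 139.1, 21.8 and 13.1 CPM. All PSB-KD107 libraries were above all vehicle libraries, and library 1 was the highest of each group, with a PSB-KD107 value 6.37 times that of the next library. The log2 fold change was 4.57 (standard error 1.23), the largest of the 10, and 22 of the 14165 genes tested had one at least as high. Without PSB-KD107 library 1 it was 2.82.

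Slc7a6 (y+LAT2; ENSMUSG00000031904, chromosome 8 from 106168857 to 106198706, plus strand), a light chain that exchanges cationic for neutral amino acids, did not share this pattern. Its level was 37.0, 46.4 and 45.3 CPM with vehicle and 36.3, 41.7 and 33.8 CPM with PSB-KD107. The groups overlapped, with a log2 fold change of -0.20 (standard error 0.14).

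Slc7a1 (CAT1; ENSMUSG00000041313, chromosome 5 from 148327410 to 148399904, minus strand) carries arginine and lysine and needs no heavy chain. Vehicle libraries had 66.95, 85.4 and 82.8 CPM and PSB-KD107 libraries 118.7, 139.6 and 136.8 CPM. The groups did not overlap, although library 1 was the lowest of each. The log2 fold change was 0.75 (standard error 0.13), close to that of Slc7a5.

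Among the sodium-dependent exchangers of small neutral amino acids, Slc1a4 (ASCT1; ENSMUSG00000020142, chromosome 11 from 20302180 to 20332713, minus strand), which carries alanine, serine and cysteine, had 19.8, 18.0 and 17.7 CPM with vehicle and 57.9, 48.1 and 45.7 CPM with PSB-KD107. The lowest PSB-KD107 value was far above the highest vehicle value, and the spread within each group was small. The means were 18.5 ± 1.13 and 50.6 ± 6.43 CPM, or 2.74-fold, which is 1.45 on the log2 scale (standard error 0.13). Slc1a5 (ASCT2; ENSMUSG00000001918, chromosome 7 from 16781340 to 16798274, plus strand), which brings in glutamine, had 21.2, 14.2 and 12.4 CPM with vehicle and 40.1, 22.1 and 29.7 CPM with PSB-KD107. Here the groups were only just apart, as the lowest PSB-KD107 library was 1.04 times the highest vehicle library. The log2 fold change was 0.94 (standard error 0.30).

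Slc38a2 (SNAT2; ENSMUSG00000022462, chromosome 15 from 96687392 to 96699730, minus strand), a sodium-coupled carrier of glutamine and alanine known to be induced when amino acids are scarce, had 246.5, 214.4 and 219.3 CPM with vehicle and 350.0, 286.6 and 349.0 CPM with PSB-KD107. All PSB-KD107 libraries were above the vehicle libraries, and the log2 fold change was 0.54 (standard error 0.12). The nearby gene Slc38a1 (SNAT1; ENSMUSG00000023169, chromosome 15 from 96571418 to 96642913, minus strand) had almost the same log2 fold change, 0.53, but a larger standard error of 0.41. Its levels were 36.0, 81.0 and 91.1 CPM with vehicle and 61.9, 117.0 and 122.2 CPM with PSB-KD107. Library 1 was the lowest of both groups, and PSB-KD107 library 1 lay below vehicle libraries 2 and 4.

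Slc6a9 (GlyT1; ENSMUSG00000028542, chromosome 4 from 117834506 to 117875198, plus strand), which takes up glycine with sodium and chloride, had 21.4, 8.28 and 8.75 CPM with vehicle and 49.6, 27.9 and 16.5 CPM with PSB-KD107. Vehicle library 1 was above PSB-KD107 library 4, so the groups overlapped. The log2 fold change was 1.29 (standard error 0.54). Slc6a9 was the only one of the 10 to share exon bases with other genes, all on the opposite strand. The largest overlap was with Ccdc24, at 27.8% of the exon bases of Slc6a9, and Ccdc24 had at most 23 counts in a library, while B4galt2, with up to 917 counts, shared 0.895%. The strand setting of the counting is not given in the sources used here, so reads of these genes cannot be told apart with certainty.

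**Figure D2:**
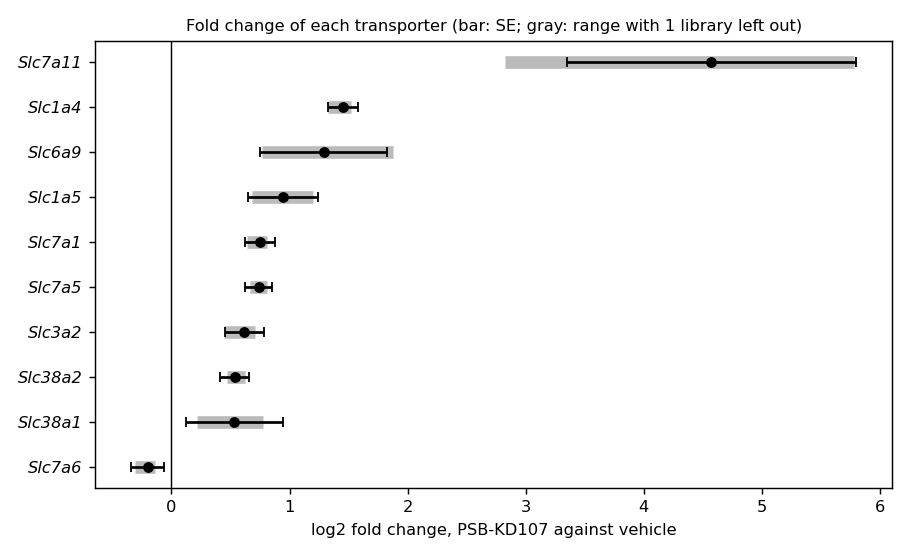
Log2 fold change of each transporter between PSB-KD107 and vehicle (point, with the standard error as bar), with the range obtained when 1 library was left out in gray. The estimates run from -0.20 for Slc7a6 to 4.57 for Slc7a11, whose range reaches down to 2.82, and each range stays on 1 side of 0. The genes were selected on this comparison.

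The direction of each of the 10 log2 fold changes was the same with any single library left out. The transporters were selected on this comparison, and the share of all genes that kept their direction was not computed. The shared direction therefore lends no support to a difference. When 1 library at a time was omitted, the range was 0.21 to 0.78 for Slc38a1 and 0.77 to 1.88 for Slc6a9. For Slc38a1 the lowest estimate was the one without vehicle library 1, and for Slc6a9 it was the one without PSB-KD107 library 1.

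Levels of different genes were compared per length, as FPKM (TMM-normalized CPM per kilobase of the union of exons). In vehicle libraries Slc7a5 was the most abundant of the 10 at 64.3 ± 1.87 FPKM, followed by Slc3a2 at 38.4 ± 7.95 and Slc38a2 at 25.7 ± 1.95 FPKM. Slc7a6 (9.39 ± 1.13 FPKM) and Slc7a1 (6.80 ± 0.866 FPKM) came next, and the libraries of these first 5 genes did not overlap with those of their neighbours in the order. Slc1a4 (4.71 ± 0.287 FPKM), Slc38a1 (4.02 ± 1.70), Slc1a5 (3.82 ± 1.11) and Slc6a9 (2.49 ± 1.45) each overlapped with the next, so their order is within the spread between libraries. Slc7a11 was last at 0.174 ± 0.171 FPKM, below every library of the other 9 genes.

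In PSB-KD107 libraries the first 3 places were the same, with Slc7a5 at 107.2 ± 12.5, Slc3a2 at 58.9 ± 2.28 and Slc38a2 at 37.2 ± 4.11 FPKM, and their libraries did not overlap. Slc1a4 moved from the sixth to the fourth place at 12.9 ± 1.64 FPKM, overlapping with Slc7a1 at 11.4 ± 0.983 FPKM, and Slc7a6 at 8.16 ± 0.889 FPKM was sixth. Slc1a5 (7.35 ± 2.17), Slc6a9 (6.09 ± 3.28), Slc38a1 (5.82 ± 1.94) and Slc7a11 (4.17 ± 5.05 FPKM) followed and overlapped with their neighbours. The last of these ranged from 0.939 to 9.99 FPKM.

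**Figure D3:**
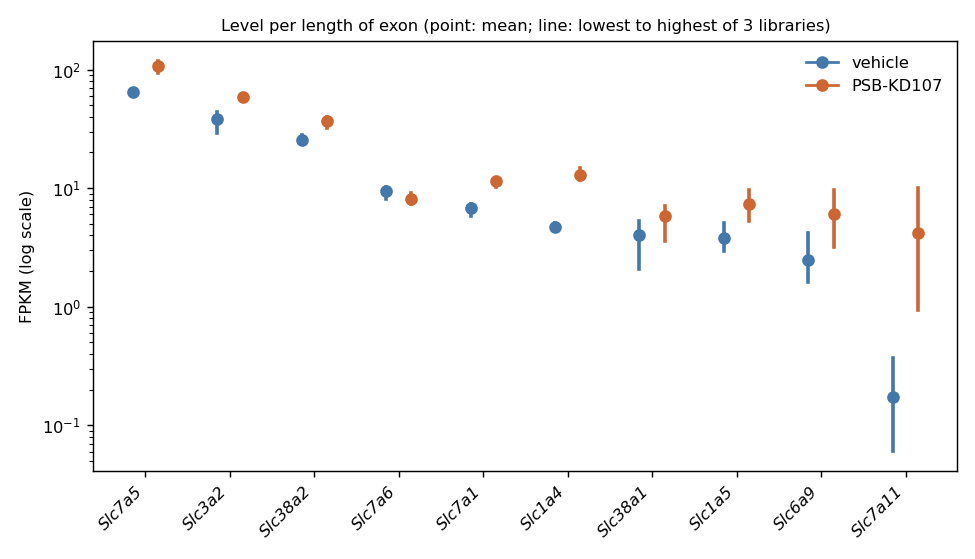
Level of each transporter in FPKM on a log scale, ordered by the vehicle mean (point: mean, line: lowest to highest of 3 libraries). Slc7a5, Slc3a2 and Slc38a2 are the 3 most abundant in both groups, and Slc7a11 lies between 0.0602 and 0.370 FPKM with vehicle and between 0.939 and 9.99 FPKM with PSB-KD107.

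Summed over the 10 genes, the level was 159.8 ± 5.19 FPKM with vehicle and 259.2 ± 3.98 FPKM with PSB-KD107. Of this difference in level, with the union of exons as length, Slc7a5 made up 43.2%, Slc3a2 20.6%, Slc38a2 11.6% and Slc1a4 8.21%. With 1 library left out, the share of Slc7a5 ran from 38.5% to 49.9% and that of Slc3a2 from 16.5% to 22.9%. Slc7a11, which had the largest fold change, made up 4.01%, or 1.08% without PSB-KD107 library 1. For the less abundant Slc38a1 and Slc6a9 the share also depended on single libraries, at 1.81% and 3.62% with all of them, 0.862% for Slc38a1 without vehicle library 1, 1.197% without PSB-KD107 library 4 and 2.93% without PSB-KD107 library 1, and 1.83% for Slc6a9 without PSB-KD107 library 1. The abundant genes thus accounted for most of the summed difference with fold changes of 1.67, 1.53 and 1.45 for Slc7a5, Slc3a2 and Slc38a2.

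The heavy chain was next compared with its light chains. The level of Slc3a2 over the sum of 6 light chains (Slc7a5, Slc7a6, Slc7a7, Slc7a8, Slc7a10 and Slc7a11), both in FPKM, was 0.372, 0.581 and 0.555 with vehicle and 0.518, 0.492 and 0.441 with PSB-KD107. All 3 PSB-KD107 values lay within the vehicle range, and the means were 0.503 ± 0.114 and 0.484 ± 0.0394. The sum of the light chains was 76.8 ± 1.83 FPKM with vehicle and 122.2 ± 6.34 FPKM with PSB-KD107. Slc7a5 made up 83.7 ± 0.610% of this sum with vehicle and 87.6 ± 5.78% with PSB-KD107. The share of Slc7a6 was 10.3% to 13.5% in vehicle libraries and 5.78% to 7.40% in PSB-KD107 libraries, and that of Slc7a11 was 0.0785% to 0.470% and 0.734% to 8.66%. Slc7a8 made up 3.50 ± 1.19% and 1.92 ± 1.19%, and Slc7a10 had 0 counts in every library.

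The libraries also differed within their groups. For 7 of the 10 transporters, library 1 lay outside the range of the other 2 libraries, and on the same side in both groups, which was so for 45.4% of all genes tested. Slc7a11, Slc1a4, Slc1a5, Slc38a2 and Slc6a9 were highest, and Slc7a1 and Slc38a1 lowest, in library 1. In vehicle and PSB-KD107 cells, library 1 had 4.91 and 7.97 times the mean of the other 2 libraries for Slc7a11, 2.52 and 2.24 times for Slc6a9, 1.59 and 1.55 times for Slc1a5, and 0.418 and 0.518 times for Slc38a1. For Slc3a2 these ratios were 0.681 and 1.02.

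**Figure D4:**
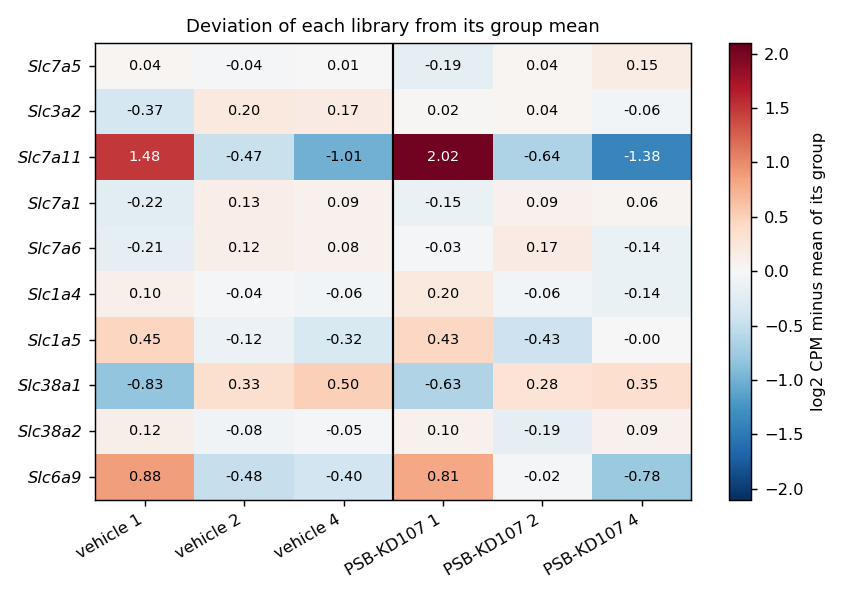
Deviation of log2 CPM of each library from the mean of its group (red: above, blue: below), with an offset of 0.1 CPM. Library 1 of both groups is above its group mean for Slc7a11 (1.48 and 2.02), Slc6a9 and Slc1a5, and below it for Slc38a1 (-0.83 and -0.63) and Slc7a1.

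Other transporters of amino acids were grouped into plasma membrane, lysosomal and mitochondrial lists. As these lists were chosen with earlier results of these data known, nothing is read from their counts. Of 35 further plasma membrane transporters, 13 had enough counts to be tested, of which 5 had a higher and 8 a lower level with PSB-KD107. Their median log2 fold change was -0.23. Of these, edgeR called 0 (by the unadjusted p-value, 2 passed 0.05 as higher and 0 as lower). Over all genes tested, 6.47% passed as higher and 2.93% as lower. DESeq2 called 1, against 2.25% of its genes called higher and 0.716% called lower. The gene called was Slc7a3, a carrier of arginine and lysine like Slc7a1. Slc7a3 was low, at 0.995, 0.687 and 0.310 CPM with vehicle and 6.92, 2.18 and 1.87 CPM with PSB-KD107 (log2 fold change 2.45, standard error 0.69, DESeq2 adjusted p = 0.0145). All PSB-KD107 libraries were above the vehicle libraries, and without PSB-KD107 library 1 the log2 fold change was 1.58. Slc6a17, a neutral amino acid carrier kept in the plasma membrane list with its family although it is known from synaptic vesicles, had 0.153, 0.716 and 0.496 CPM against 1.39, 1.73 and 29.5 CPM, and thus a log2 fold change of 4.58 (standard error 1.46), which was 1.78 without PSB-KD107 library 4. Slc3a1, the heavy chain of the kidney cystine transporter, was at 0.485 ± 0.118 and 0.286 ± 0.0254 CPM (log2 fold change -0.75, standard error 0.33). The taurine transporter Slc6a6 was the most highly counted of the list, at 1391 ± 297 and 1118 ± 277 CPM, and its groups overlapped.

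Of 11 lysosomal transporters, 10 were tested, with 8 higher, 2 lower and a median log2 fold change of 0.27. Neither edgeR nor DESeq2 called any after adjustment, and 2 passed 0.05 as higher and 0 as lower by the unadjusted p-value of edgeR. For this list and the mitochondrial one, the unadjusted shares of all genes were 6.47% higher and 2.93% lower. The DESeq2 shares were 2.25% and 0.716%. Slc38a7, which exports glutamine and asparagine from lysosomes, was at 19.4 ± 1.85 and 33.2 ± 8.22 CPM (log2 fold change 0.78, standard error 0.21), and the groups did not overlap. The cystine exporter Ctns was at 27.5 ± 2.89 and 43.2 ± 13.8 CPM with overlapping groups, and Slc36a1, a proton-coupled carrier, at 4.75 ± 2.05 and 9.11 ± 3.11 CPM without overlap. Of 13 mitochondrial carriers, 11 were tested, with 8 higher, 3 lower and a median of 0.11, and both tools called 0, as did the unadjusted p-value of edgeR at 0.05. Slc25a12, the aspartate/glutamate carrier, was at 80.4 ± 13.4 and 114.8 ± 28.5 CPM, Slc25a44, a carrier of branched-chain amino acids, at 43.4 ± 1.90 and 51.8 ± 6.17 CPM, and Sfxn2, a sideroflexin, at 5.62 ± 0.585 and 4.27 ± 0.725 CPM.

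**Figure D5:**
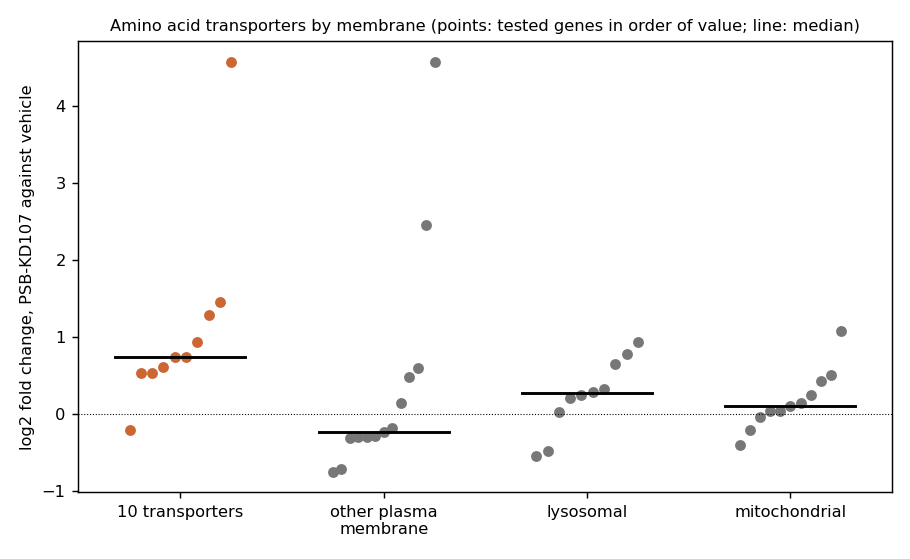
Log2 fold change of the tested amino acid transporters (points, in order of value) and the median of each list (line). The medians are 0.74 for the 10 transporters, which were selected on this comparison, -0.23 for the other plasma membrane transporters, 0.27 for the lysosomal and 0.11 for the mitochondrial ones.

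The genes that act upstream of the transporters, mainly transcription factors and kinases of the response to amino acid shortage and oxidative stress, were all tested. Of these 17, 16 had a higher and 1 a lower level, and their median log2 fold change was 0.57. Of these, edgeR called 0 (unadjusted, 9 passed 0.05 as higher and 0 as lower). DESeq2 called 4, all higher (Atf5, Ddit3, Cebpb and Myc). Over all genes, 6.47% passed unadjusted as higher and 2.93% as lower, and DESeq2 called 2.25% higher and 0.716% lower. This list was also chosen with earlier results of these data known, so nothing is read from its counts. Atf5, a relative and target of Atf4, was at 53.0, 71.5 and 59.0 CPM with vehicle and 169.9, 200.7 and 190.2 CPM with PSB-KD107 (log2 fold change 1.61, standard error 0.14). Ddit3, which encodes the stress factor CHOP, was at 10.8 ± 1.56 and 58.8 ± 19.3 CPM (log2 fold change 2.44, standard error 0.26), and Cebpb, which binds DNA as a partner of Atf4, at 18.5 ± 2.105 and 40.5 ± 7.66 CPM (1.13, standard error 0.18). The groups of all 3 genes did not overlap. In the whole list, groups were apart for 9 genes as higher and 0 as lower, against 9.20% and 6.59% of all genes.

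Atf4 itself was at 218.3, 241.5 and 254.2 CPM with vehicle and 451.2, 427.5 and 276.5 CPM with PSB-KD107 (log2 fold change 0.69, standard error 0.20), and PSB-KD107 library 4 was the one closest to vehicle. Nfe2l2, the factor of the oxidative stress response, was at 91.6, 86.8 and 86.5 CPM with vehicle and 129.5, 108.9 and 171.1 CPM with PSB-KD107 (0.63, standard error 0.17). Neither gene was called by edgeR or DESeq2. Both factors are also regulated through translation or protein stability, which RNA-seq does not measure.

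The last list held 17 genes that sense or use the amino acids brought in, among them parts of mTORC1 and of glutathione metabolism. All 17 were tested, with 11 higher, 6 lower and a median log2 fold change of 0.23. By edgeR 0 were called (unadjusted, 5 passed 0.05 as higher and 2 as lower), and DESeq2 called Chac1 and Eif4ebp1 higher and Castor2 lower. The shares of all genes were 6.47% and 2.93% unadjusted, and 2.25% and 0.716% by DESeq2. Groups were apart for 5 genes as higher and 3 as lower, against 9.20% and 6.59% of all genes. Nothing is read from these counts, as earlier results of these data were known when the list was chosen. Chac1, which degrades glutathione, was at 6.02, 6.67 and 6.48 CPM with vehicle and 36.5, 30.3 and 16.8 CPM with PSB-KD107 (log2 fold change 2.13, standard error 0.30). Eif4ebp1, the translation inhibitor phosphorylated by mTORC1, was at 62.9 ± 8.54 and 101.8 ± 6.87 CPM (0.69, standard error 0.13). Castor2, a relative of the arginine sensor Castor1, was at 137.9 ± 13.8 and 90.6 ± 13.7 CPM (-0.61, standard error 0.14), and the groups of all 3 genes did not overlap. Gclm, a subunit of the enzyme that makes the precursor of glutathione from cysteine, was at 77.7, 36.6 and 19.9 CPM in PSB-KD107 libraries 1, 2 and 4 against 26.7 to 27.5 CPM with vehicle, so that library 1 was the highest here, as for Slc7a11, and library 4 was below vehicle. The log2 fold change of Gclm was 0.72, and 0.04 without PSB-KD107 library 1. Gclc and Gss, also of glutathione synthesis, had log2 fold changes of 0.23 and -0.05, and the groups of both overlapped. Over all genes tested, library 1 lay outside the other libraries of its group, on the same side in both groups, for 45.4%.

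The genes most like the transporters over the 6 libraries were found by the Pearson correlation of their log2 CPM with the mean of the standardized log2 CPM of the 10. They were Ctsa (r = 0.998), a lysosomal carboxypeptidase, Pold2 (0.998), a subunit of DNA polymerase delta, Wdr81 (0.994), Canx (0.993), the chaperone calnexin of the endoplasmic reticulum, and Ndufb6 (0.993), a subunit of respiratory complex I. Ctsa had 69.8, 81.1 and 81.1 CPM with vehicle and 170.9, 166.3 and 149.1 CPM with PSB-KD107. Pold2 had 22.0 to 23.1 and 26.9 to 27.6 CPM, so the likeness is one of shape and not of size. These values describe 6 libraries that share the same split into groups.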

How the data were processed

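Poly(A)-selected RNA of mdx myoblasts, 3 libraries per group, was sequenced in paired-end mode, and per the labels and the methods of the study the reads were aligned to mm10 with STAR 2.3.0. The authors deposited raw counts per gene, with no normalization. The counting program, its annotation and strand setting are not given in the sources used here. Groups follow the sample records, matched by the column names.

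Genes were filtered with filterByExpr and scaled with TMM factors, and the groups were compared by the quasi-likelihood test of edgeR 4.0.16 (limma 3.58.1, R 4.3.3) with Benjamini-Hochberg adjustment over all genes tested and a threshold of 0.05. The standard errors given were derived from this test, as the absolute log2 fold change over the square root of its F statistic, so they restate the test. DESeq2 1.42.0 was run on the whole table as an alternative. Tables were handled in Python 3.11.15 with pandas 2.3.3. Lengths and coordinates came from GENCODE M21 (GRCm38), and promoters from RefSeq (GRCm38.p6). Symbols that had changed were matched through these annotations (Slc66a1 is listed as Pqlc2, Castor1 as Gatsl3 and Castor2 as Gatsl2). The fits were also run on simulated counts with known changes. The outcome is not reported here and lends no support to the calls or to their absence. P-values weigh the difference between the groups against the spread between these libraries, as each tool estimates it.

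The members and lists were chosen with earlier results of these data known. All 10 transporters were named, with the genes of the 3 smallest p-values in each list and the 5 genes most like the transporters. Further genes (Slc6a6, Atf4, Nfe2l2, Gclm, Gclc, Gss, Pax7 and Myog) were picked from the lists after their values were seen. The alternatives were RLE factors, no filter, a mean FPKM of at least 1, DESeq2, limma-voom, a replicate block, each library left out in turn, longest transcripts for length and a shorter response element. DESeq2 on the genes kept by filterByExpr was added after seeing the data.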

Additional observations from a re-analysis of the deposited data

How the results depend on the processing

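The direction of the log2 fold change of each of the 10 transporters was the same under every alternative run, and so was that of their median. As the transporters were selected on this comparison, nothing is read from this. For Slc7a11, leaving out 1 library gave log2 fold changes between 2.82 (without PSB-KD107 library 1) and 5.78 (without vehicle library 1). Over the whole table, edgeR called 8 genes with no filter on low counts, and DESeq2 called 410, or 482 when run on the genes kept by filterByExpr, where Slc3a2 was the sixth transporter called. Of the other transporters, DESeq2 called 1 of the plasma membrane list in both runs and 1 of the lysosomal list in the second. With the longest transcript as length, Slc38a1 was in place 6, Slc1a5 in place 7 and Slc1a4 in place 8 of the vehicle order. The union of exons gave 7, 8 and 6, so these 3 places depend on the length used. The shares of the summed level and the ratios of heavy to light chains were not rerun with the longest transcript. Depth did not keep any of the 10 transporters from being tested.

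The replicate number as a block could be set on the 4 libraries numbered 1 and 2, the numbers shared by table and records. edgeR then called 2456 genes over the whole table, among them 3 of the plasma membrane, 5 of the lysosomal and 2 of the mitochondrial list. For scale, the main fit tested 14165 genes, and 13, 10 and 11 genes of these lists. The filter was applied anew to the 4 libraries, so these numbers are not the denominators of the blocked fit. Nothing particular to the lists is read from their calls. The same libraries without the block gave 0, as did the block over all 6 libraries by the numbers of the table. The block on 4 libraries leaves few degrees of freedom. The deviations of same-numbered libraries from their group means correlated at 0.632 for number 1, 0.520 for number 2 and -0.13 for number 4. Across numbers, vehicle library 4 and PSB-KD107 library 2 correlated at 0.645. PSB-KD107 library 1 correlated at -0.522 and -0.547 with vehicle libraries 2 and 4. The numbers were therefore not taken to pair all the libraries, and a shared mouse for number 1 was not tested. Between libraries with the same number, the PSB-KD107 over vehicle ratio of CPM was above 1 for all 3 numbers in 9 transporters and below 1 in Slc7a6 (0.981, 0.899 and 0.747). The share of all genes with such ratios was not computed. As the transporters were selected on this comparison and the numbers are not taken as pairs, nothing is read from this count.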
